A study of Mus musculus with 12 samples.

Results

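The fibroblast growth factor genes described here comprised 5 secreted ligands (Fgf1, Fgf2, Fgf5, Fgf7 and Fgf9) and 5 receptors (Fgfr1, Fgfr2, Fgfr3, Fgfr4 and Fgfrl1). They were found by gene symbol, and all 10 were present among the 17576 genes of the expression table. Of the 10, 4 reached 1 RPKM in at least 3 of the 12 libraries and were tested, namely Fgf5, Fgfr1, Fgfr3 and Fgfrl1. RPKM is the number of reads scaled by transcript length and by the mapped reads of the library, so levels of different genes are compared per length. The gene set was chosen by symbol with earlier results of these libraries known, and the measured value in view was the low level of Fgf5 in the knockdown cells. Differences of Fgf5 are therefore given as descriptions with no p-value, and counts of calls are over the other 3 tested members.

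The libraries came from C18-4, an immortalized line of mouse spermatogonial stem cells, for which the labels give the strain as IRC mouse. Knockdown cells, labelled C18_5251KD and written KD here, carried LV3 lentiviral vectors with a mixture of 3 shRNAs against the long noncoding RNA lncRNA5251, and their control cells, 3NC, received LV3 that encoded a control shRNA. Overexpressing cells, labelled C18_5251OV and written OV here, carried LV5, another lentiviral vector, into which lncRNA5251 had been inserted, while the control cells 5NC received LV5 alone. The heading of the supplementary methods for these cells instead names lncRNA8276, and the groups here follow the labels. All 4 groups were described as stably transfected cells, each had 3 libraries, and the vector backbone and the control shRNA cannot be told apart from the group in any comparison of 5NC with 3NC. The comparison of KD with 3NC asks how the genes differed with the vectors designed to knock down lncRNA5251. That of OV with 5NC asks how they differed with the vector designed to overexpress it. That of 5NC with 3NC asks how far the control cells differed.

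Fibroblast growth factors bind receptor tyrosine kinases together with heparan sulfate chains on the cell surface, and the paracrine ligands hardly signal without those chains. The activated receptor phosphorylates the docking protein FRS2 and drives the RAS-ERK and PI3K-AKT routes, which in turn raise inhibitors of the same routes such as the Sprouty proteins and DUSP6. In the testis, FGF2 together with GDNF sustains the self-renewal of spermatogonial stem cells in culture, FGF9 acts early in male sex determination, and the ETS factors ETV4 and ETV5 are targets of this signaling in stem cells.

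The designed sequences are shown because they define the knockdown and control groups, and because they allow a check for stretches that the members share with them. Each is written 5′ to 3′ in the sense orientation as listed for the study, where the knockdown sequences are named for lncRNA5251. Capitals mark the 7 bases that would pair with bases 2 to 8 of the guide strand if the guide began opposite the last listed base, which is an assumption.
control shRNA: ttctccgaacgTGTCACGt
knockdown shRNA 1: gctgggacttaatGTCCTTCt
knockdown shRNA 2: gcatgggcaattcAAACAAAt
knockdown shRNA 3: gcttattatgcatCGTAAACc
In the GENCODE mouse transcripts, each knockdown sequence matched in full, in the sense direction, transcripts of only 1 gene, Purb, which encodes a protein that binds purine-rich nucleic acid, and the control sequence matched none. Purb averaged 33.6 ± 0.624 RPKM in 3NC and 9.32 ± 0.806 in KD (SD, n = 3), and this fall of 1.75 on the log2 scale had an adjusted p of 1.69e-09. In 5NC and OV it averaged 30.7 ± 1.46 and 27.1 ± 5.30 RPKM, and the sequence and level of lncRNA5251 itself were not analysed here. In KD a loss of Purb and a loss of lncRNA5251 therefore cannot be told apart. The 3′ UTRs of Fgf5, Fgfr3 and Fgfrl1, which are 3 of the 4 tested members, contained none of the capital stretches. Fgfr1 contained 1 site of shRNA 2, Fgf1 contained 2 and Fgf2 contained 4, and 27.9% of the 20987 genes with an annotated 3′ UTR contained at least 1 such site. Fgfr2 contained 2 sites of the control shRNA, a stretch found in 2.39% of genes. The longest run that Fgf5 shared with any of these sequences was 7 bases. A site of this kind is a match of letters, and whether it acts was not tested.

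The promoters of 8 of the 10 members were present in the RefSeq promoter table of build GRCm38.p6 and were searched on both strands from 250 bases before to 50 bases after the start. The motifs were CCGGAAG for ETS factors such as ETV4 and ETV5, TGANTCA for AP-1, TATAAA for the TATA box and TGACGTCA for the cyclic AMP response element. Fgfrl1 carried CCGGAAG 48 bases before its start, in capitals at chr5:108694170-108694199 on the plus strand, and the site is shown as the one match to this motif among the members. Whether it bears on the level of Fgfrl1 was not tested.
Fgfrl1 promoter: tcgcagattggCCGGAAGttgtgcggggcg
That motif was present in 8.86% of all 32851 promoter windows. Fgf5 carried TATAAA 35 bases after its start, a motif of 13.6% of windows. TGANTCA and TGACGTCA, found in 7.81% and 1.79% of windows, did not occur in the windows of the members, which says only that these letters were not there.

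The 12 libraries were alike in the sum of their RPKM values, which lay between 533099 and 580920. Relative depths, read from the steps between low values of 71 genes, lay between 0.941 and 1.03. Only genes whose steps were nearly equal across libraries were kept for this, which narrows that range in advance. It therefore cannot show that depths were equal. The number of reads per library is unknown. Spearman correlations within groups, across the tested genes, were 0.992 to 0.998, with replicate 3 of OV and replicate 3 of KD the least like the others of their groups. Among 14 spermatogonial markers, Ret, Nanos2, Pou5f1 and Kit were listed at 0 in every library, and 3, Id4, Uchl1 and Itga6, reached 1 RPKM in at least 3 libraries. In KD against 3NC, Id4 fell by 0.40 (adjusted p = 0.00143) and Uchl1 by 0.24 (adjusted p = 0.00525), while Itga6 rose by 0.34 on the log2 scale (adjusted p = 0.00709). The sum over that list was 79.65 to 89.05 RPKM in 3NC, lower in KD at 68.94 to 76.22, and higher in 5NC at 95.04 to 98.95 and in OV at 110.48 to 127.65. Of 7 Sertoli markers in the table, 4 reached that level, and their list summed to 58.6 to 66.72 RPKM over all libraries. Of 7 peritubular and fibroblast markers, 6 did so, and the sum over the list was 329.01 to 339.13 RPKM in 3NC and 442.16 to 530.05 in KD, with 637.39 to 641.98 in 5NC and 636.67 to 672.45 in OV. Not every marker followed this sum, since Des fell by 0.73 in 5NC against 3NC (adjusted p = 1.96e-06). Of 6 immune and endothelial markers in the table, Cd68 alone reached that level and the other 5 were under 1 RPKM in every library. Their list summed to 4.72 to 6.31 RPKM in 3NC, above the 3.19 to 3.44 in KD, with 2.73 to 2.99 in 5NC and 2.09 to 3.4 in OV. Cd68 fell in KD against 3NC by 0.70 (adjusted p = 0.000628) and in 5NC against 3NC by 0.92 (adjusted p = 5.78e-05).

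Among the ligands, Fgf5 was the only member above 1 RPKM in any library, and its level separated all 4 groups. FGF5 is a secreted ligand best known for ending the growth phase of the hair cycle. In 3NC its level was 1.95, 2.2 and 2.21 RPKM, and in KD it was 0.44, 0.56 and 0.51. In 5NC it was 5.75, 6.30 and 5.43 RPKM, and in OV it was 6.74, 7.40 and 7.49. The order was KD, 3NC, 5NC, OV from low to high, and no 2 neighbouring groups overlapped. The mean was 2.12 ± 0.147 RPKM in 3NC and 0.503 ± 0.060 in KD (SD, n = 3), a ratio of 4.21 that rests on levels under 1 RPKM in KD. The mean in OV was 7.21 ± 0.410 RPKM against 5.83 ± 0.440 in 5NC, a ratio of 1.24. The control cells themselves differed by a larger factor than this, since the mean in 5NC was 2.75 times that in 3NC. In these bulk samples fewer cells that express a gene and less RNA per cell cannot be told apart.

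**Figure D1:**
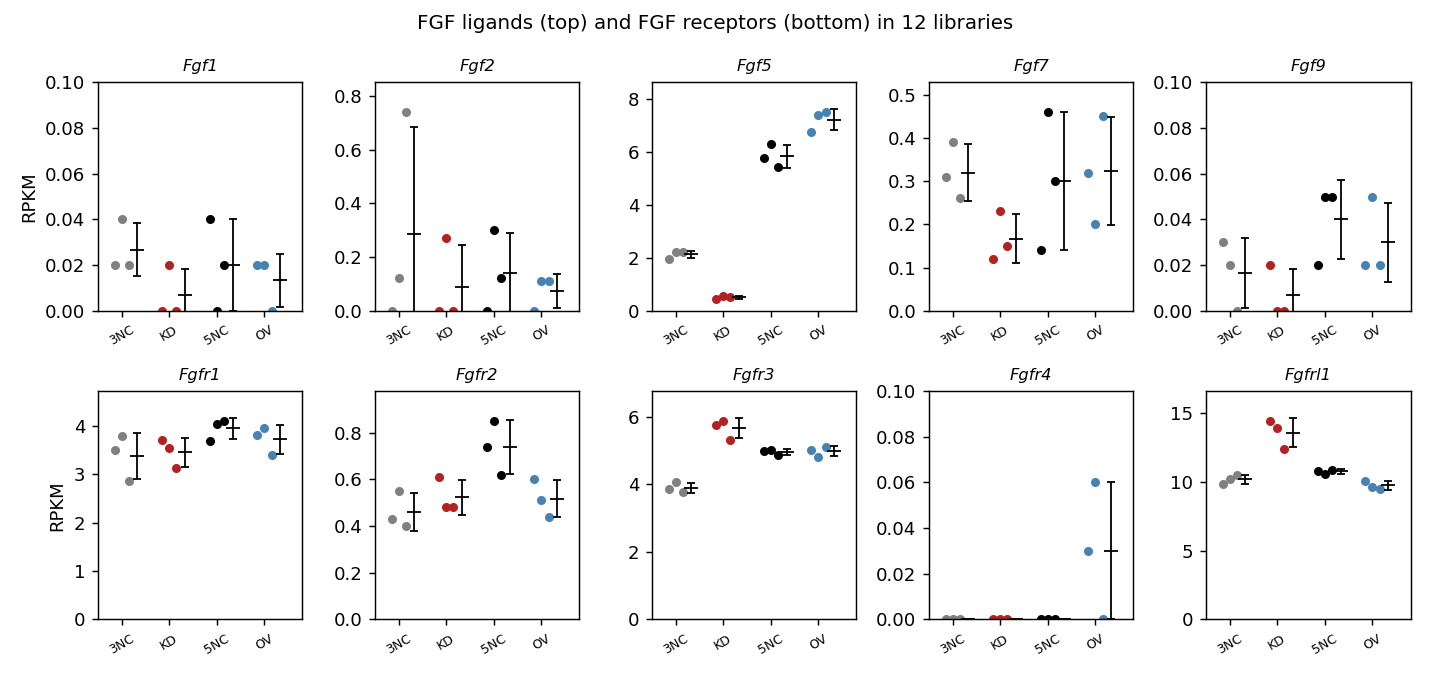
Level of each of the 10 members in each of the 12 libraries, in RPKM, grouped as 3NC, KD, 5NC and OV, with 1 point per library and black marks for the group mean and SD (n = 3), ending at 0 where the SD passes it. Fgf5 separates all 4 groups, Fgfr3 and Fgfrl1 are highest in the 3 libraries of KD, the libraries of Fgfr1 overlap between groups, and the other 6 members stay under 1 RPKM.

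On the log2(RPKM + 1) scale, where the added 1 shrinks differences of low genes, Fgf5 was lower by 1.05 (SE 0.08) in KD than in 3NC and higher by 0.27 (SE 0.08) in OV than in 5NC. It was higher by 1.13 (SE 0.08) in 5NC than in 3NC. With a pseudocount of 0.1 the knockdown difference was -1.88. For the same reason the difference of KD from 3NC less that of OV from 5NC was -1.32 with a pseudocount of 1 and -2.19 with 0.1.

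The other 4 ligand members were at or near the bottom of the table. Fgf1, a ligand for every FGF receptor, was listed at 0 to 0.04 RPKM, and Fgf9 at 0 to 0.05 RPKM. Fgf2, the ligand added to cultures of spermatogonial stem cells, was listed at 0 in replicate 1 of each group and reached 0.74 RPKM in replicate 3 of 3NC, its highest value. Its libraries ranged from 0 to 0.27 RPKM in KD, 0 to 0.30 in 5NC and 0 to 0.11 in OV, so all groups overlapped. Fgf7, which signals from stromal to epithelial cells through a splice form of FGFR2, was at 0.31, 0.39 and 0.26 RPKM in 3NC and at 0.12, 0.23 and 0.15 in KD. These 2 groups did not overlap. Fgf7 in 5NC was at 0.14, 0.46 and 0.30 RPKM and in OV at 0.32, 0.20 and 0.45, a spread that covered 3NC. When every gene above 0 in any library was fitted, 17008 genes in all, the lower level of Fgf7 in KD had an adjusted p of 0.145.

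Among the receptors, Fgfrl1 was the most abundant member in every library and made up 56.9% of the summed receptor level in 3NC and 58.5% in KD, with 52.7% in 5NC and 51.3% in OV (means, n = 3). FGFRL1 binds ligands but lacks the intracellular tyrosine kinase domain of the other receptors. Its level was 9.86, 10.21 and 10.50 RPKM in 3NC and 14.43, 13.89 and 12.38 in KD. In 5NC it was 10.82, 10.58 and 10.87 RPKM, and in OV it was 10.07, 9.64 and 9.50. Every library of KD was above all 9 others, those of OV and 3NC overlapped, and those of 5NC lay just above both. Fgfrl1 rose in KD against 3NC by 0.38 on the log2(RPKM + 1) scale (SE 0.06, adjusted p = 9.01e-05). Leaving out any 1 library gave values from 0.34 to 0.44. In OV it differed from 5NC by -0.13 (95% interval -0.26 to -0.0018, adjusted p = 0.13), and in 5NC from 3NC by 0.07 (SE 0.06, adjusted p = 0.331).

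Fgfr3 encodes a receptor kinase whose activating mutations shorten the long bones. Its level was 3.85, 4.06 and 3.78 RPKM in 3NC and 5.77, 5.88 and 5.32 in KD. In 5NC it was 4.99, 5.02 and 4.87 RPKM, and in OV it was 5.01, 4.82 and 5.12. The order was 3NC, then 5NC and OV, which overlapped, then KD, which was above all other libraries. Fgfr3 rose in KD against 3NC by 0.44 (SE 0.06, adjusted p = 2.65e-05) and in 5NC against 3NC by 0.28 (SE 0.06, adjusted p = 0.00126). Between OV and 5NC the difference was 0.01 with a 95% interval from -0.13 to 0.14 (adjusted p = 0.961). Set against 5NC instead of 3NC, a comparison added after the data were seen, KD was still higher, by 0.16 for Fgfr3 (adjusted p = 0.0359) and by 0.31 for Fgfrl1 (adjusted p = 0.00041).

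Fgfr1, the receptor most often expressed by mesenchymal cells, did not separate the groups. Its level was 3.49, 3.79 and 2.85 RPKM in 3NC and 3.7, 3.53 and 3.12 in KD. In 5NC it was 3.69, 4.04 and 4.10 RPKM, and in OV it was 3.81, 3.95 and 3.39. Each pair of groups overlapped. The difference was 0.03 in KD against 3NC (95% interval -0.16 to 0.22, adjusted p = 0.812) and -0.07 in OV against 5NC (95% interval -0.26 to 0.12, adjusted p = 0.599). Between the controls, 5NC and 3NC, it was 0.18 (95% interval -0.01 to 0.37, adjusted p = 0.0943). Without replicate 2 of 3NC that last difference was 0.25 and passed the test, with an adjusted p of 0.042.

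The remaining receptors were low. Fgfr2 was at 0.43, 0.55 and 0.40 RPKM in 3NC, at 0.61, 0.48 and 0.48 in KD, at 0.74, 0.85 and 0.62 in 5NC and at 0.60, 0.51 and 0.44 in OV. The libraries of 5NC were above those of 3NC and OV. Fgfr2 was below the level set for testing, and in the fit of 17008 genes it was higher in 5NC than in 3NC by 0.25 (SE 0.06, adjusted p = 0.00753). Fgfr4 was listed at 0 in 10 libraries and at 0.03 and 0.06 RPKM in replicates 1 and 2 of OV. The 5 receptors summed to 17.9 ± 0.597 RPKM in 3NC and 23.2 ± 1.68 in KD, with 20.4 ± 0.137 in 5NC and 19.0 ± 0.535 in OV (SD, n = 3). The 4 kinase receptors without Fgfrl1 summed to 7.73 ± 0.686 RPKM in 3NC and 9.63 ± 0.622 in KD, with 9.64 ± 0.249 in 5NC and 9.25 ± 0.263 in OV.

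Counted together, 2 of the 3 tested members besides Fgf5, Fgfr3 and Fgfrl1, rose in KD against 3NC and none fell, where 31.9% of all 11435 tested genes rose and 23.5% fell at an adjusted p of at most 0.05 in limma. With OV set against 5NC, none of the 3 passed in limma, and 1, Fgfrl1, was lower at an unadjusted p under 0.05, where 8.07% of tested genes rose and 13.9% fell at the adjusted level. Between the controls, 1 of the 3, Fgfr3, rose in 5NC and none fell, where 31.0% of tested genes rose and 25.6% fell. Counts at an unadjusted p under 0.05 were the same as at the adjusted level for KD against 3NC and for the controls. Under a stricter rule, an adjusted p of at most 0.001 with an absolute log2 difference of at least 1, none of the 3 passed in limma for the knockdown, the overexpression or the controls, with background shares of 1.57%, 0.00% and 2.61%. The median log2 difference over all tested genes was 0.04 for the knockdown, -0.03 for the overexpression and 0.02 for the controls.

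Separation of libraries was also common among all genes. All libraries of KD lay above those of 3NC for 35.7% of tested genes and below them for 27.1%. All libraries of OV lay above those of 5NC for 14.6% and below them for 22.0%, and all libraries of 5NC lay above those of 3NC for 37.5% and below them for 31.9%. In the comparison of KD with 5NC, 34.0% of tested genes were called higher and 31.4% lower.

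The response to knockdown was set directly against the response to overexpression, as the difference of KD from 3NC less that of OV from 5NC. It was 0.51 (SE 0.09, adjusted p = 0.000187) for Fgfrl1 and 0.44 (SE 0.09, adjusted p = 0.000817) for Fgfr3, and both passed in limma, where 31.2% of tested genes passed in this direction. For Fgfr1 the value was 0.10 (SE 0.13, adjusted p = 0.54). The labels do not say that the 3 libraries of a group came from separate cultures, so these p-values measure the spread between libraries, which may be technical.

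**Figure D2:**
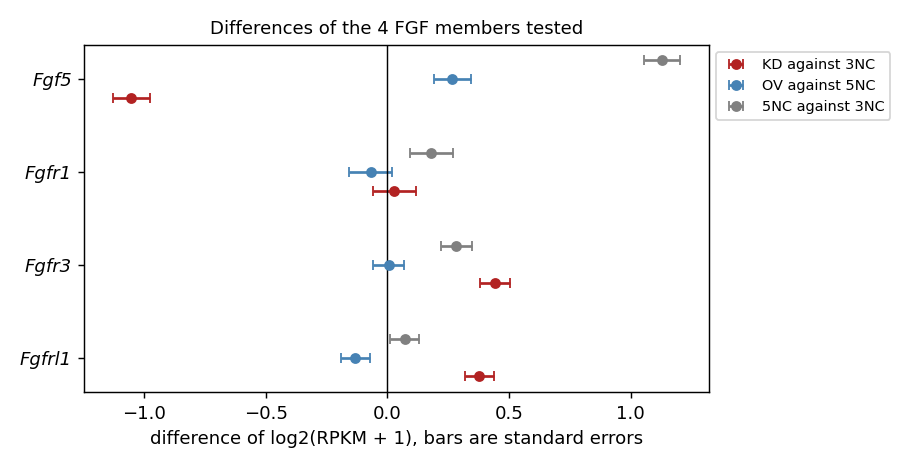
Log2(RPKM + 1) differences of the 4 tested members for KD set against 3NC, for OV set against 5NC and for the controls (5NC against 3NC), with bars of 1 standard error from the fit over 12 libraries. Fgfr3 and Fgfrl1 lie above 0 in the knockdown comparison, at 0.44 and 0.38, and at 0.01 and -0.13 in the overexpression comparison. Fgf5 lies at -1.05, 0.27 and 1.13 in the order of the comparisons.

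The other secreted ligands put the member ligands into scale. Of 13 further secreted FGF genes looked for, 10 were in the table and 2, Fgf18 and Fgf21, reached the level set for testing. Both passed in all 3 comparisons, except that no test is given for Fgf21 in 5NC against 3NC because earlier results had already singled it out there. FGF18 is a paracrine ligand of bone and cartilage that binds FGFR3 well, and FGF21 is an endocrine ligand that needs the co-receptor beta-Klotho. Klb, which encodes beta-Klotho, was listed at 0 in 8 libraries and did not exceed 0.05 RPKM in any.

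Fgf18 was at 2.36, 2.86 and 2.51 RPKM in 3NC, at 5.85, 5.57 and 7.18 in KD, at 9.43, 9.72 and 9.56 in 5NC and at 15.51, 12.32 and 12.08 in OV. The 4 groups did not overlap. It rose in KD against 3NC by 1.01 (SE 0.10, adjusted p = 6.18e-07), the opposite sense to Fgf5, and in OV against 5NC by 0.43 (SE 0.10, adjusted p = 0.00856). It was also higher in 5NC than in 3NC, by 1.57 (adjusted p = 3.83e-09).

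Fgf21 was at 8.76, 9.50 and 8.98 RPKM in 3NC, at 16.93, 14.42 and 14.78 in KD, at 59.91, 62.07 and 63.47 in 5NC and at 47.11, 46.44 and 42.53 in OV. It was the most abundant ligand in every library, and its groups did not overlap. It rose in KD against 3NC by 0.70 (SE 0.06, adjusted p = 2.84e-07) and fell in OV against 5NC by 0.44 (SE 0.06, adjusted p = 0.000607). The difference between 5NC and 3NC was 2.64 (SE 0.06). The knockdown direction of both ligands depended on the control. Set against 5NC, KD differed by -0.56 for Fgf18 (adjusted p = 0.000127) and by -1.94 for Fgf21. The summed level of the peritubular and fibroblast markers was also lowest in 3NC, intermediate in KD and highest in the LV5 groups, while that of the immune and endothelial markers was highest in 3NC. Single markers did not all follow the first sum. In 5NC against 3NC 4 of the 6 tested rose and 2 fell, beside 31.0% and 25.6% of tested genes. Des fell there by 0.73 (adjusted p = 1.96e-06), and Acta2 fell by 0.60 in OV against 5NC (adjusted p = 0.000244). The part of either set of markers in the levels of Fgf18 and Fgf21 was not tested.

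All secreted ligands in the table summed to 14.8 ± 1.02 RPKM in 3NC and 22.7 ± 1.21 in KD, with 78.2 ± 2.24 in 5NC and 66.7 ± 3.51 in OV (SD, n = 3). Fgf5 made up 14.3% of this sum in 3NC and 2.23% in KD, with 7.46% in 5NC and 10.8% in OV. Fgf21 made up 61.5%, 67.7%, 79.1% and 68.0%. Thus the ligand sum, most of it Fgf21, was higher in KD than in 3NC while Fgf5 was lower. Whether these RNA levels bear on FGF signaling was not tested. Of the intracellular homologous factors, which are not secreted, Fgf11 alone reached the level set for testing, and it fell by 0.57 in 5NC against 3NC (SE 0.08, adjusted p = 2.6e-05).

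**Figure D3:**
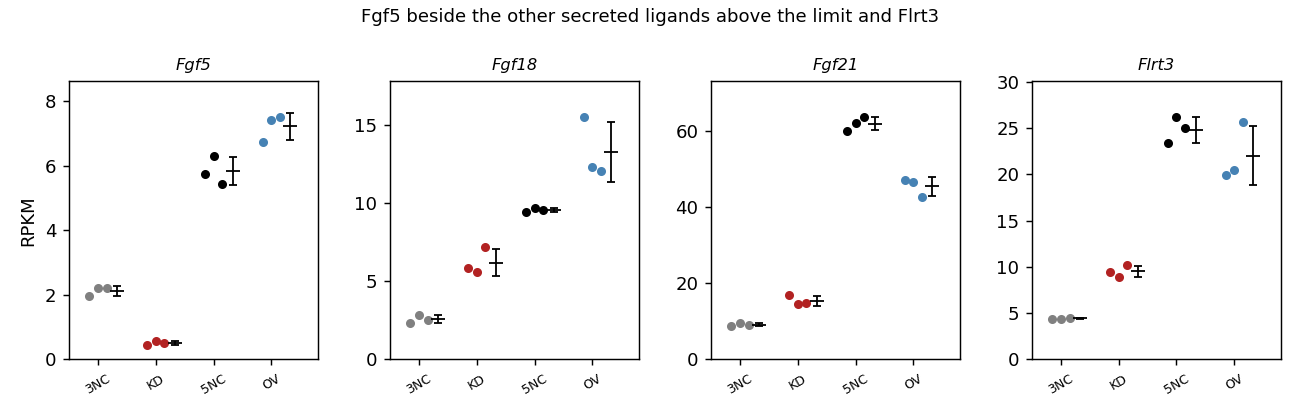
Levels of Fgf5, Fgf18, Fgf21 and the FGF receptor partner Flrt3 in each of the 12 libraries, in RPKM, with 1 point per library and black marks for the group mean and SD (n = 3). From 3NC to KD, Fgf5 goes from a mean of 2.12 to 0.503 RPKM while Fgf18 goes from 2.58 to 6.20 and Fgf21 from 9.08 to 15.4.

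The co-receptors and binding proteins that passed in KD against 3NC, or in 5NC against 3NC, were higher than in 3NC. Of 8 in the table, 5 were tested, of which 3 rose and none fell in KD against 3NC, with a list median of 0.32, where 31.9% of tested genes rose and 23.5% fell. One of these 3, Flrt1, reached the level set for testing only through the libraries of KD, so the count and the median lean on how it was admitted. Among the other 4 genes 2 rose, with a median of 0.15, too few to set apart from the background. In 5NC against 3NC 3 rose and none fell, with a median of 0.32 (0.65 without Flrt1), beside 31.0% and 25.6% of tested genes, and in OV against 5NC none passed in limma, with a median of -0.12 (-0.06 without Flrt1). Flrt3, a leucine-rich transmembrane protein that binds FGF receptors, was at 4.38, 4.41 and 4.50 RPKM in 3NC and at 9.44, 8.92 and 10.17 in KD, a rise of 0.95 (SE 0.08, adjusted p = 1.99e-07). It was at 23.34, 26.15 and 24.96 RPKM in 5NC and at 19.96, 20.46 and 25.66 in OV, which overlapped. The rise from 3NC to 5NC was 2.25 (SE 0.08, adjusted p = 1.3e-11). Against 5NC, KD was instead lower for Flrt3 (-1.30, adjusted p = 3.7e-09), and 2 of the 5 genes were higher and 3 lower, where 34.0% of tested genes were higher and 31.4% lower. Il17rd, which encodes an inhibitor of FGF signaling also called SEF, rose in KD by 0.34 (adjusted p = 0.00287). Flrt1 was at 0.85, 0.96 and 0.86 RPKM in 3NC and at 1.3, 1.46 and 1.32 in KD, and no p is given for it. Between the controls the others were Flrt2, at 0.97 (adjusted p = 2.83e-07), and Fgfbp3, a carrier of secreted FGFs, at 0.32 (adjusted p = 0.0229), which did not pass without replicate 2 or 3 of 3NC or replicate 1 of 5NC. Without replicate 3 of OV, 1 of the 5 genes fell in OV against 5NC.

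Genes of heparan sulfate synthesis and of the proteoglycans that carry it moved in both directions in the knockdown. Of 19 tested, 11 rose and 5 fell in KD against 3NC, with a median of 0.22 beside 0.04 over all tested genes, of which 31.9% rose and 23.5% fell. The glypican Gpc4 rose from 4.54 ± 0.855 to 10.2 ± 0.692 RPKM (log2 difference 1.02, adjusted p = 4.7e-07). The syndecans went opposite ways, with Sdc2 higher by 0.71 (adjusted p = 9.26e-09) and Sdc4 falling by 0.55 (adjusted p = 8.41e-08). Ext2, a polymerase of the chain, rose by 0.48 (adjusted p = 1.48e-06). Between the controls 13 rose in 5NC and 1, Gpc1, fell, with a median of 0.27, beside 31.0% and 25.6% of tested genes. Sulf1, a sulfatase that trims heparan sulfate outside the cell, was at 7.26 ± 0.180 RPKM in 3NC and 10.4 ± 0.531 in KD, with 29.8 ± 0.901 in 5NC and 24.7 ± 2.68 in OV. It rose by 1.90 in 5NC against 3NC (adjusted p = 1.03e-11) and fell by 0.26 in OV against 5NC (adjusted p = 0.0151). In OV against 5NC 1 of 19 rose and 4 fell, with a median of -0.08, beside 8.07% and 13.9% of tested genes. Without replicate 1 or 2 of OV, or replicate 2 of 5NC, 2 fell and Sulf1 did not pass, and the 1 that rose, Sdc4, did not pass when any 1 of these libraries or replicate 3 of 5NC was left out. Set against 5NC, 4 of the 19 genes were higher in KD and 7 lower, beside 34.0% and 31.4% of tested genes, with Sulf1 lower (-1.43, adjusted p = 1.64e-10).

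The adaptors and relay kinases below the receptors were all expressed, and those that passed moved in both directions. Of 28 tested, 9 rose and 8 fell in KD against 3NC, with a median of 0.01, and 8 rose and 6 fell in 5NC against 3NC, with a median of 0.03. Among all tested genes 31.9% rose and 23.5% fell in the first comparison and 31.0% and 25.6% in the second, so the shares of relay genes were near the background. Set against 5NC, 7 of the 28 were higher in KD and 8 lower, beside 34.0% and 31.4% of tested genes. Gab1, a docking protein for PI3K and SHP2, was at 18.12, 17.24 and 17.71 RPKM in 3NC and at 27.52, 27.49 and 27.92 in KD, a rise of 0.62 (SE 0.05, adjusted p = 2.46e-07). It was at 35.43, 35.82 and 35.00 RPKM in 5NC, so that KD differed from these controls by -0.35 (adjusted p = 4.93e-05) and 5NC higher than 3NC by 0.96 (adjusted p = 1.27e-09). Gab2, a related docking protein, averaged 3.44 ± 0.141 RPKM in 3NC and 1.77 ± 0.081 in 5NC, a fall of 0.68 (adjusted p = 2.27e-06). Braf rose by 0.42 (adjusted p = 0.000802) and Hras fell by 0.42 (adjusted p = 0.000961) in KD against 3NC, and the adaptor Shc1 fell there by 0.39 (adjusted p = 9.27e-06). In OV against 5NC 2 rose and 5 fell, with a median of -0.07, also near the 8.07% and 13.9% of tested genes. In a fit on these 6 libraries alone 1 fell. Of the 2 that rose, Akt1 and Shc1, Shc1 did not pass without replicate 1 or 2 of OV or replicate 1 or 3 of 5NC, and 3 rose without replicate 3 of OV. The number that fell also moved with single libraries, since 13 fell without replicate 3 of OV, 1 fell without its replicate 2, 2 fell without its replicate 1 or replicate 2 of 5NC, and 3 fell without replicate 1 or 3 of 5NC or any 1 library of 3NC. Cbl, a ubiquitin ligase that sends receptors for degradation, was at 6.85, 7.92 and 8.29 RPKM in 5NC and at 3.38, 4.49 and 6.85 in OV, a fall of 0.59 (SE 0.14, adjusted p = 0.0118) that did not pass without replicate 2 of OV or in the fit on these 6 libraries alone (adjusted p = 0.051).

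Most of the tested feedback inhibitors and transcriptional targets of FGF signaling were lower in KD than in 3NC. Of 9 tested, 7 fell and 1, Spry1, rose in KD against 3NC, with a median of -0.81, where 23.5% of tested genes fell and 31.9% rose. Between the controls 6 fell in 5NC and 1, again Spry1, rose, with a median of -0.58, beside 25.6% and 31.0% of tested genes. Spry4, which fell in both counts, reached the level set for testing through the 3NC libraries and 1 library of OV alone. Among the other 8 genes 6 fell in KD and 5 in 5NC, with medians of -0.56 and -0.52. In OV against 5NC 2 rose and none fell, with a median of 0.09, beside 8.07% and 13.9% of tested genes, and 1 fell without replicate 2 or 3 of KD or replicate 3 of OV. Set against 5NC, 2 of the 9 were higher in KD and 4 lower, again beside 34.0% and 31.4% of tested genes. These genes also respond to other receptor tyrosine kinases that use the RAS-ERK route. The list was chosen with earlier results of these libraries known, so its p-values are not independent support.

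Etv4 was at 32.15, 30.18 and 31.64 RPKM in 3NC and at 10.49, 10.08 and 8.07 in KD, a fall of 1.62 on the log2 scale (SE 0.09, adjusted p = 1.05e-09). It was at 3.40, 3.73 and 3.63 RPKM in 5NC and at 6.37, 5.88 and 5.25 in OV, a rise of 0.57 (SE 0.09, adjusted p = 0.0009). No groups of Etv4 overlapped, and its level in 5NC was below that in KD, which was higher than 5NC by 1.19 (adjusted p = 1.35e-08). Etv5, needed for self-renewal of spermatogonial stem cells in mice, went from 7.81 ± 0.085 RPKM in 3NC to 2.35 ± 0.157 in KD, a fall of 1.40 (adjusted p = 2.16e-09), and averaged 3.10 ± 0.411 in 5NC and 2.86 ± 0.185 in OV.

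Dusp6, the phosphatase that inactivates ERK, was at 17.33, 17.57 and 16.84 RPKM in 3NC and at 5.71, 5.31 and 6.50 in KD, a fall of 1.42 (SE 0.07, adjusted p = 3.66e-10). It was at 8.81, 8.79 and 8.57 RPKM in 5NC and at 10.37, 10.13 and 11.14 in OV. That rise of 0.25 (SE 0.07, adjusted p = 0.0182) did not pass without replicate 2 or without replicate 3 of 5NC. Against 5NC, KD was still lower for Dusp6 (-0.51, adjusted p = 7.54e-06) and Etv5 (-0.29, adjusted p = 0.00501). Spry4 was at 2.66, 2.41 and 2.6 RPKM in 3NC and at 0.54, 0.68 and 0.56 in KD, and no p is given for it. Spred2 fell in KD by 0.81 (adjusted p = 3.84e-08), while Spry1 rose by 0.63 (adjusted p = 0.000208). Fgf5 and most of these genes were lower in KD than in 3NC, but in 5NC Fgf5 was higher than in 3NC and Etv4, Etv5, Spry4 and Dusp6 were lower. The comparisons with 3NC share its 3 libraries.

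**Figure D4:**
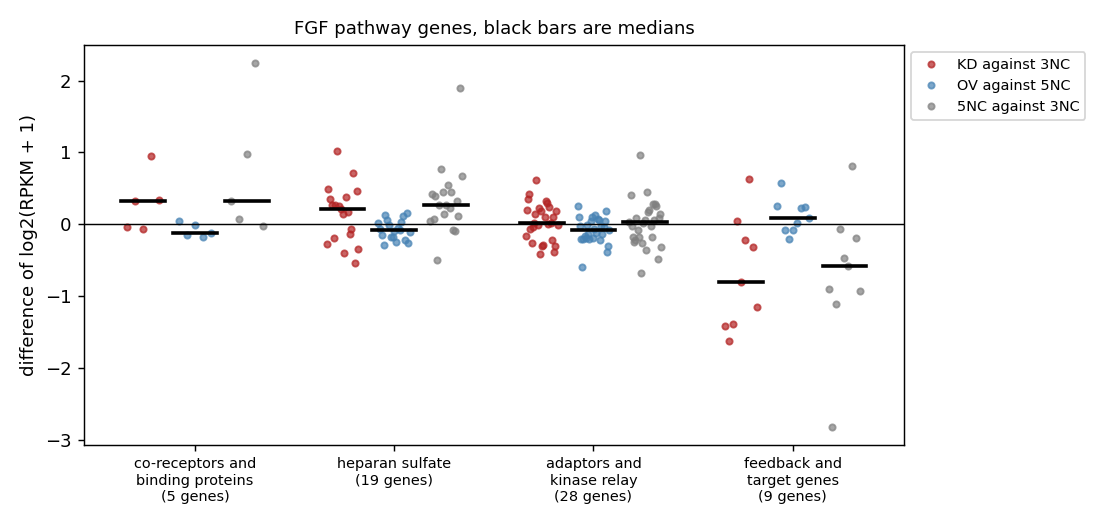
Log2(RPKM + 1) differences of the tested genes of 4 fixed lists (5 co-receptors and binding proteins, 19 heparan sulfate genes, 28 adaptors and relay kinases, 9 feedback and target genes) in 3 comparisons, with 1 point per gene and a bar at the list median. Feedback and target genes lie lowest in KD against 3NC and 5NC against 3NC, with medians of -0.81 and -0.58, and relay genes centre near 0. Without Spry4, which was admitted mainly through the 3NC libraries, those medians are -0.56 and -0.52.

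The genes whose profiles were most like those of the members were sought over the 12 libraries, as the smallest root mean square difference between log2(RPKM + 1) profiles centred on their own means. For Fgf5 they were Cemip (0.179), Mid1ip1 (0.190), Stc2 (0.191), Ptx3 (0.202) and Wisp1 (0.224). For Fgfrl1 they were Lman2l (0.0395), H2-K1 (0.0432), Vps39 (0.0491), Wdr90 (0.0532) and Pomk (0.0597). The smaller values for Fgfrl1 go with the narrower range of its profile. These are descriptions over the same libraries and carry no test.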

How the data were processed

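RNA-seq of 12 C18-4 libraries, 3 in each of 4 groups, was analysed from 1 table of gene levels. The authors deposited RPKM values, which they made from reads mapped to reference genes with SOAPaligner. The build and annotation are not given in the sources used here, and no read counts were used, so the count model of the study could not be applied. The labels give total RNA and the methods an oligo(dT) selection. Columns were assigned to libraries by name, and 0 columns were left unassigned.

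RPKM values were taken as log2(RPKM + 1). The 11435 genes that reached 1 RPKM in 3 or more libraries were fitted with limma 3.58.1 in R 4.3.3 on all 12 libraries, with group as the only factor and a mean trend in the prior variance. Tests were two-sided and p-values were adjusted over all tested genes by the Benjamini-Hochberg method. A gene was called at an adjusted p of at most 0.05. An exact permutation test of 3 against 3 libraries has 10 distinct splits and cannot go below p = 0.1, so it was not used. The members and gene lists were chosen with earlier results of these data known, and named genes besides the members were at most the 5 with the greatest absolute difference past the adjusted level in each list and comparison, the other FGF genes that were tested, Purb and the genes of nearest profile. Spry2 was named after its values were seen. Alternatives were a pseudocount of 0.1, no filter, quantile normalization, a replicate block, a fit on the 6 libraries compared, and each library left out. Depth in reads is unknown, so no interval for counting error was given.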

Additional observations from a re-analysis of the deposited data

Results flagged for a closer look

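For the following genes the difference of KD from 3NC and that of OV from 5NC differed from each other, and the value given is the first less the second on the log2(RPKM + 1) scale. In limma, with adjustment over all tested genes, it was 0.44 for Fgfr3 (adjusted p = 0.000817) and 0.51 for Fgfrl1 (adjusted p = 0.000187), in both cases a rise with knockdown set against no called change with overexpression.

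Among the other FGF genes it was 0.58 for Fgf18 (adjusted p = 0.0027) and 0.29 for Fgf11 (adjusted p = 0.0433). Among receptor partners it was 1.12 for Flrt3 (adjusted p = 2.18e-06) and 0.46 for Il17rd (adjusted p = 0.00479). Among feedback and target genes it was -2.20 for Etv4 (adjusted p = 3.58e-09), -1.67 for Dusp6 (adjusted p = 4.32e-09) and -1.31 for Etv5 (adjusted p = 3.15e-07). It was -0.73 for Spred2 (adjusted p = 5.7e-06) and 0.41 for Spry1 (adjusted p = 0.0398). For Spry2, named after its values were seen, it was -0.56, given with no p-value. All of these lists were chosen with earlier results of these libraries known, so the p-values are not independent support. Etv4 and Dusp6 had called differences of opposite sign, a fall in KD against 3NC and a rise in OV against 5NC. Etv4 in KD was, however, higher than in 5NC, so its fall depended on the control, while Dusp6 in KD was below both controls. The rise of Dusp6 in OV did not pass without replicate 2 or without replicate 3 of 5NC. For Fgf21, singled out before by earlier results, the value was 1.14, and for Flrt1, which reached the level set for testing only through the libraries of KD, it was 0.47. These 2 differences were not tested. Groups of 3 libraries were not searched for single outlying libraries.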

How the results depend on the processing

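Of 392 values recomputed under an alternative, 375 held. For a tested value this means the same direction and the same side of the adjusted level, for a count a change of at most 1.5 times, and for Fgf5, which was not tested, a shift below the spread between replicates. For many values the difference itself could not change, as when the library left out was outside the comparison, so the tally overstates stability. For Fgf5, 6 values moved. With a pseudocount of 0.1 it was -1.88 in KD against 3NC, 1.42 in 5NC against 3NC and -2.19 for the difference of the 2 effects. Under quantile normalization it was 0.34 in OV against 5NC and -1.45 for that difference. With 5NC as the control of KD it was -2.18. The number of members higher in 5NC than in 3NC went from 1 to 2 without the filter on low values, which adds Fgfr2, and ranged from 1 to 2 over fits without 1 library, with Fgfr1 added without replicate 2 of 3NC. Without the filter, the members whose 2 effects differed went from 2 to 3, again with Fgfr2 (0.26, adjusted p = 0.0418). The other counts of members did not move when a library was left out. Among the members, sign changes touched only differences near 0. With 5NC as the control of KD, genes outside the members, such as Fgf18, Fgf21, Flrt3, Gab1 and Etv4, turned from larger differences. Fgfr1 in KD against 3NC was -0.040 under quantile normalization, ranged from -0.062 (without replicate 3 of 3NC) to 0.096 (without replicate 2 of 3NC) over fits without 1 library, with a negative value also without replicate 1 of KD, and was -0.15 with 5NC as the control, an alternative chosen after seeing the data. Under quantile normalization Fgfr1 was 0.028 in OV against 5NC, and its difference of the 2 effects was -0.068. Fgfr3 in OV against 5NC ranged from -0.011 (without replicate 3 of OV) to 0.025 (without replicate 2 of OV), with a negative value also without replicate 3 of 5NC. The cause was not tested. With the replicate number as a block, Fgfr3 and Fgfrl1 stayed higher in KD, by 0.44 (adjusted p = 7.47e-05) and 0.38 (adjusted p = 0.000196), and no call of a member changed. Deviations of libraries with the same number correlated at -0.18 to 0.18, so the numbers were not taken to pair libraries. The difference of the 2 effects needs all 4 groups and was not run on 6 libraries. Depth in reads is unknown, so levels under 1 RPKM, those of 6 members and of Fgf5 in KD, carry an error that could not be given.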
